A study of Sus scrofa domesticus with 36 samples.

Results

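Longissimus dorsi muscle, the long muscle of the back, was compared between the 6 pigs with the most and the 6 pigs with the least PVALB transcript in that muscle. The groups were chosen by measured values: the 18 muscle libraries of the series were ranked by PVALB CPM (gene counts of a library scaled to a common total), and ranks 1 to 6 (high PVALB) were set against ranks 13 to 18 (low PVALB). Each library is 1 pig, and the 12 libraries are part of 36 in all, 1 of muscle and 1 of subcutaneous backfat from each of 18 pigs. All pigs were Danbred 600 X Newsham NC32 commercial crosses sampled 3 weeks after weaning, with no drug, diet or genetic treatment named in the labels. The submitters took 9 pigs with a growth rate up to percentile 10 and 9 pigs of percentiles 60 to 70 out of 1054. The growth class of a pig is not given in the labels used here, so the growth classes in each PVALB group are not known and growth and PVALB cannot be told apart. An age of 16 to 17 days also stands in the labels, at odds with sampling 3 weeks after weaning.

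Parvalbumin, the product of PVALB, is a soluble calcium-binding protein of fast-twitch muscle fibres. In rodent muscle it takes up calcium after each contraction and so speeds relaxation, before the calcium is pumped back into the sarcoplasmic reticulum. PNCK encodes a calcium/calmodulin-dependent protein kinase.

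PVALB (ENSSSCG00000000138) had 93.1, 52.0, 39.9, 26.3, 25.5 and 21.6 CPM of library totals in the high PVALB pigs Sample_391, Sample_491, Sample_176, Sample_991, Sample_889 and Sample_835. It had 6.64, 3.08, 2.33, 1.59, 1.14 and 1.14 CPM in the low PVALB pigs Sample_77, Sample_114, Sample_998, Sample_735, Sample_572 and Sample_186. The highest library thus held 81.9 times the PVALB CPM of the lowest. These values made the groups and carry no test. The 6 libraries between the groups had 14.9 to 20.5 CPM. The last high PVALB library, at 21.6 CPM, was close to the first library outside it, at 20.5 CPM, whereas the low group was set off by a wider gap, with 14.9 CPM just outside and 6.64 CPM just inside. The low values rest on few counts, from 5.5 in Sample_572 to 34 in Sample_77, against 107.5 to 526 in the high group. In backfat of the same pigs PVALB was between 0 and 7.17 CPM in the high and between 0 and 0.744 CPM in the low group.

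**Figure D1:**
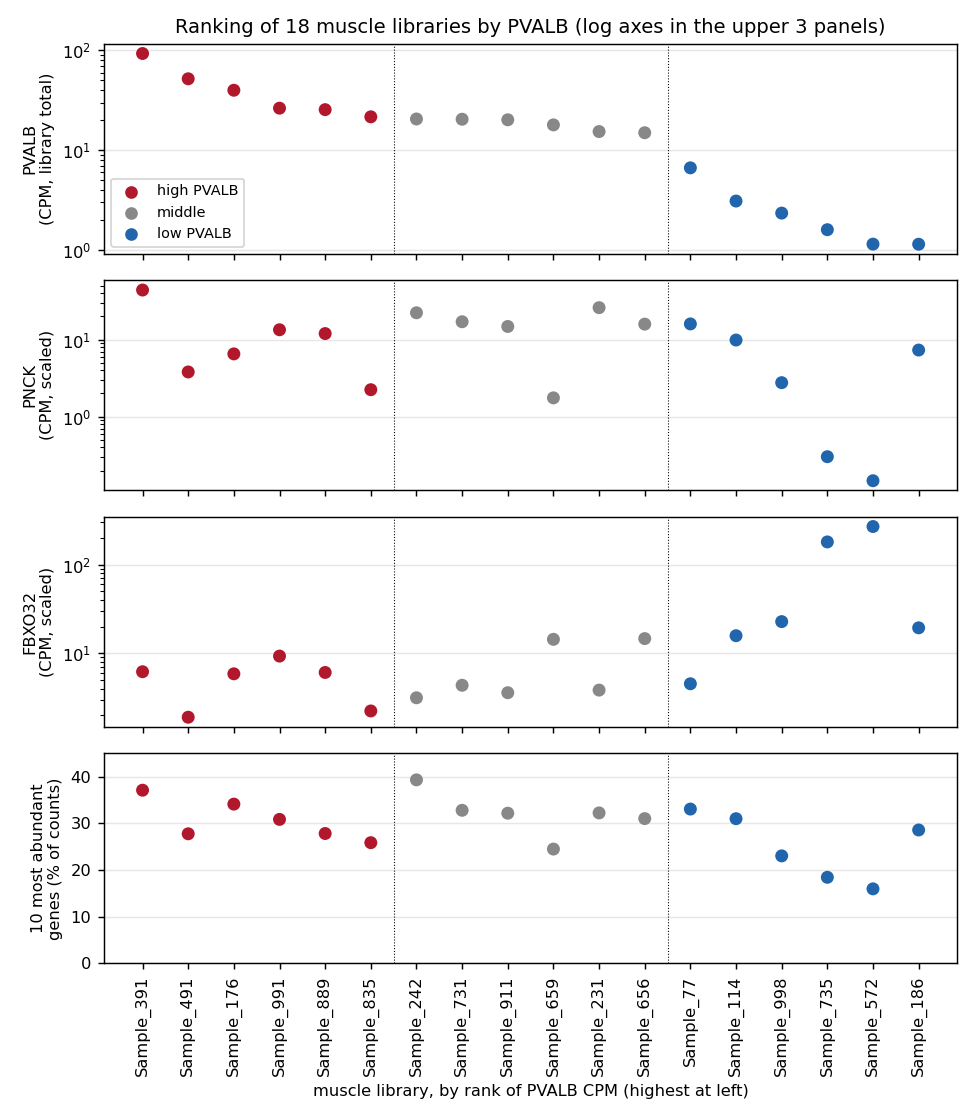
PVALB (CPM of library totals), PNCK and FBXO32 (CPM after trimmed-mean scaling) and the share of counts in the 10 most abundant genes (percent) in the 18 muscle libraries, 1 point each, ordered by PVALB from the left; the upper 3 axes are logarithmic. PVALB falls by construction, PNCK spreads over both groups, and Sample_735 and Sample_572 have the most FBXO32 (180 and 269 CPM) and the lowest shares (18.4% and 16.0%).

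Among the low PVALB libraries, Sample_735 and Sample_572 stood apart from the others. ACTA1, skeletal muscle actin and the defining transcript of this tissue, had 60288 to 150942 CPM in the high PVALB libraries and 42464 to 114286 CPM in the other 4 low PVALB libraries, but 13737 and 15323 CPM in Sample_735 and Sample_572. These ACTA1 levels and all later levels in muscle, except those of PVALB, are CPM after trimmed-mean scaling over the 18 muscle libraries. Backfat levels other than PVALB were scaled in the same way over the backfat libraries. Sample_735 and Sample_572 had the highest muscle scaling factors (1.403 and 1.405), so scaling lowered their ACTA1 levels. Total gene counts were 4982332 to 5647640 in the high and 4716541 to 6216459 in the low group. The share of counts in no annotated gene averaged 18.1% ± 1.12 in the high and 22.2% ± 6.02 in the low group (SD, n = 6 each; two-sided exact permutation p = 0.0368, adjusted p over 5 library measures 0.0920), with 34.1% in Sample_572. The 10 most abundant genes held 30.6% ± 4.32 of counts in the high and 25.0% ± 6.97 in the low group (SD, n = 6 each; two-sided exact permutation p = 0.132, adjusted p = 0.220). With the share of the 10 most abundant genes as a covariate, 21 genes passed, 14 of them among the 59 that passed without it. The part of these differences between libraries in the results below was not tested further. Log2 differences and list medians without Sample_735 and Sample_572 are given beside those that moved by more than 1.5 times.

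Across all genes except PVALB, 59 of 10659 tested genes passed an adjusted p of 0.05 between high and low PVALB muscle (0.554% of genes), with edgeR's quasi-likelihood test and Benjamini-Hochberg adjustment. Of these, 39 genes (0.366%) were higher and 20 genes (0.188%) lower in high PVALB muscle. Among the genes that rose were enzymes of serine synthesis, amino acid transporters, tRNA synthetases and enzymes of sterol and unsaturated fatty acid synthesis. Genes that fell included the interleukin-6 receptor gene IL6R and a pair of polycomb genes, EZH1 and BMI1. None of the fast or slow contractile genes tested passed. An unadjusted p under 0.05 was reached by 2280 genes, 1135 higher and 1145 lower. The 6 high and 6 low values did not overlap for 189 genes (1.77%), among them 43 of the 59.

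The number of genes passing depended on single libraries. It was 355 without Sample_176 and 90 without Sample_77, and 49 without Sample_998. It was 11 without Sample_391, 3 without Sample_491, 6 without Sample_991, 10 without Sample_889, 10 without Sample_835, 3 without Sample_114, 4 without Sample_735, 8 without Sample_572 and 3 without Sample_186. All 59 genes kept the sign of their difference in each of these fits, and 3 passed in each of them: ARG2 and the unnamed genes ENSSSCG00000027527 and ENSSSCG00000003467. The 59 genes were chosen in these same libraries, so a kept sign was largely set in advance and is no separate support. Without both Sample_735 and Sample_572, 3 genes passed, ARG2, ENSSSCG00000027527 and IL6R, all 59 kept their sign, and the median size of their log2 difference was 0.84, against 0.95 with all 12 libraries. When libraries were scaled by their totals alone, the median over genes shifted to -0.18 on the log2 scale, and the split was 27 higher and 84 lower.

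**Figure D2:**
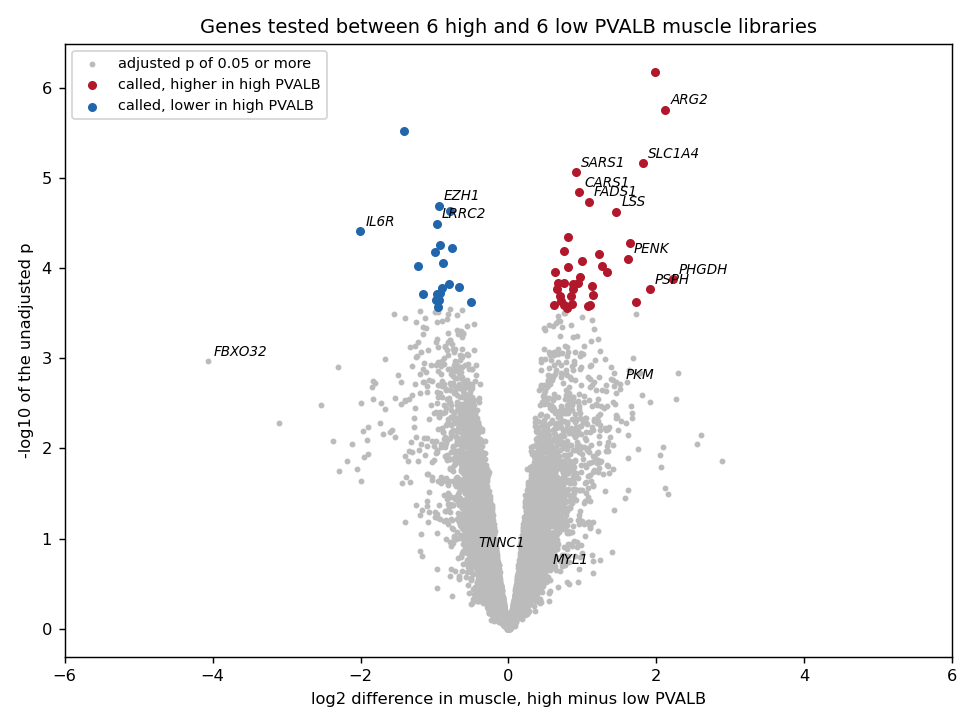
Each point is 1 of the genes tested in muscle, with the log2 difference (high minus low PVALB) on the x axis and -log10 of the unadjusted p on the y axis; red points passed and were higher, blue points passed and were lower in high PVALB muscle. FBXO32 has the largest difference (-4.06) without passing, and MYL1 and TNNC1 lie near the foot of the plot.

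PNCK (ENSSSCG00000012773) did not separate the groups. It had 2.24 to 44.0 CPM (median 9.25) in high PVALB muscle, with the most in Sample_391, and 0.147 to 16.0 CPM (median 5.04) in low PVALB muscle, with the least in Sample_735 and Sample_572. Its log2 difference was 1.24 (SE 0.853, adjusted p = 0.420, edgeR), and 0.62 without those 2 libraries. Of the 12 calmodulin-dependent kinase genes tested, 1 was higher, 0 were lower and 11 did not pass. The member that rose was PHKG1, the catalytic subunit of the muscle phosphorylase kinase that turns on glycogen breakdown, with 73.7 to 127 CPM (median 78.7) in high and 39.3 to 63.8 CPM (median 42.3) in low PVALB muscle. The groups did not overlap for PHKG1 (log2 difference 0.87, SE 0.175, adjusted p = 0.0456, edgeR).

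Among the genes that passed and have a symbol, the 4 with the largest rises were PHGDH, ARG2, PSPH and SLC1A4, all genes of amino acid metabolism or transport. PHGDH, the enzyme that commits a glycolytic intermediate to serine synthesis, had 2.61 to 13.5 CPM (median 4.38) in high and 0.605 to 2.49 CPM (median 1.23) in low PVALB muscle. Every high PVALB library lay above every low one, although Sample_835, the lowest of the high group, was close to Sample_998. The log2 difference of PHGDH was 2.23 (SE 0.433, adjusted p = 0.0456, edgeR), a fold of 4.69. PSPH, which completes serine synthesis, had 3.04 to 13.5 CPM (median 9.13) in high and 0.885 to 5.18 CPM (median 2.21) in low PVALB muscle. The groups overlapped for PSPH through Sample_176, whose 3.04 CPM was below Sample_77 and Sample_186 of the low group (log2 difference 1.91, SE 0.380, adjusted p = 0.0456, edgeR).

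ARG2, the mitochondrial arginase that splits arginine into ornithine and urea, had 16.4 to 28.6 CPM (median 21.95) in high and 2.36 to 9.94 CPM (median 4.12) in low PVALB muscle. The groups lay well apart, with Sample_835 the lowest of the high group and Sample_998 the highest of the low group. The log2 difference of ARG2 was 2.12 (SE 0.278, adjusted p = 0.00932, edgeR), and 1.85 (adjusted p = 0.0349) without Sample_735 and Sample_572. SLC1A4, a carrier of alanine, serine and other neutral amino acids, had 2.24 to 5.65 CPM in high and 0.885 to 1.38 CPM in low PVALB muscle (log2 difference 1.82, SE 0.272, adjusted p = 0.0182, edgeR). SLC3A2, the shared heavy chain of several amino acid exchangers, had 131 to 164 CPM in high and 68.5 to 126 CPM in low PVALB muscle (log2 difference 0.75, SE 0.159, adjusted p = 0.0499, edgeR). Neither transporter overlapped between the groups.

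The synthetases that load serine, cysteine and alanine onto their tRNAs rose as well. SARS1 had 101 to 168 CPM (median 126) in high and 60.8 to 78.0 CPM (median 67.3) in low PVALB muscle, with no overlap (log2 difference 0.91, SE 0.139, adjusted p = 0.0186, edgeR). CARS1 had 16.8 to 26.4 CPM in high and 8.71 to 14.4 CPM in low PVALB muscle (log2 difference 0.96, SE 0.153, adjusted p = 0.0253, edgeR). AARS1 had 91.4 to 113 CPM in high and 51.1 to 82.0 CPM in low PVALB muscle (log2 difference 0.63, SE 0.122, adjusted p = 0.0439, edgeR). The differences of SARS1 and AARS1 were as large without Sample_735 and Sample_572 (0.97 and 0.63). Of 17 tested cytosolic aminoacyl-tRNA synthetase genes, 3 passed, all higher, and 14 did not pass. Over all 10659 genes tested, 59 passed (0.554%), 39 of them higher. The median log2 difference of the 17 was 0.38, against -0.00 over all genes tested. Of 12 genes of serine and glycine synthesis and the amino acid stress response, 2 passed, both higher, with a median of 0.78. Asparagine synthetase, ASNS, did not pass, with 19.4 to 69.5 CPM (median 34.0) in high and 3.39 to 20.3 CPM (median 9.25) in low PVALB muscle (log2 difference 1.77, SE 0.440, adjusted p = 0.0710, edgeR). Of 10 amino acid transporter genes, 2 were higher and 0 lower, with a median of 0.13, or 0.28 without Sample_735 and Sample_572. These 3 lists, and the sterol, fatty acid and polycomb lists below, were drawn up after the values had been seen. Their counts and medians, also beside those of all genes, are therefore no separate support for the genes that passed.

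The libraries between the groups did not place several of these genes in order of PVALB. Sample_231, with 15.4 CPM of PVALB, had the highest level of all 18 libraries for PHGDH (64.9 CPM), PSPH (41.8 CPM), ARG2 (138 CPM), SARS1 (231.4 CPM), CARS1 (45.0 CPM) and AARS1 (155 CPM). It was the highest of 18 for 11 of the 39 genes higher in high PVALB muscle. In a slope on log2 PVALB over all 18 libraries, ARG2, PHGDH, PSPH and CARS1 did not pass (adjusted p = 0.0781, 0.212, 0.0904 and 0.0745, edgeR). SARS1, AARS1, SLC1A4 and SLC3A2 passed there (adjusted p = 0.0316, 0.0390, 0.00220 and 0.0271, edgeR). Of the 59 genes, 45 passed in that slope, against 610 of all 11144 genes (5.47%). The slope includes the libraries that chose the 59 genes, so this count was largely set in advance. The mean of the 6 middle libraries lay between the group means for 49 of the 59 genes, above both for 9 and below both for 1.

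**Figure D3:**
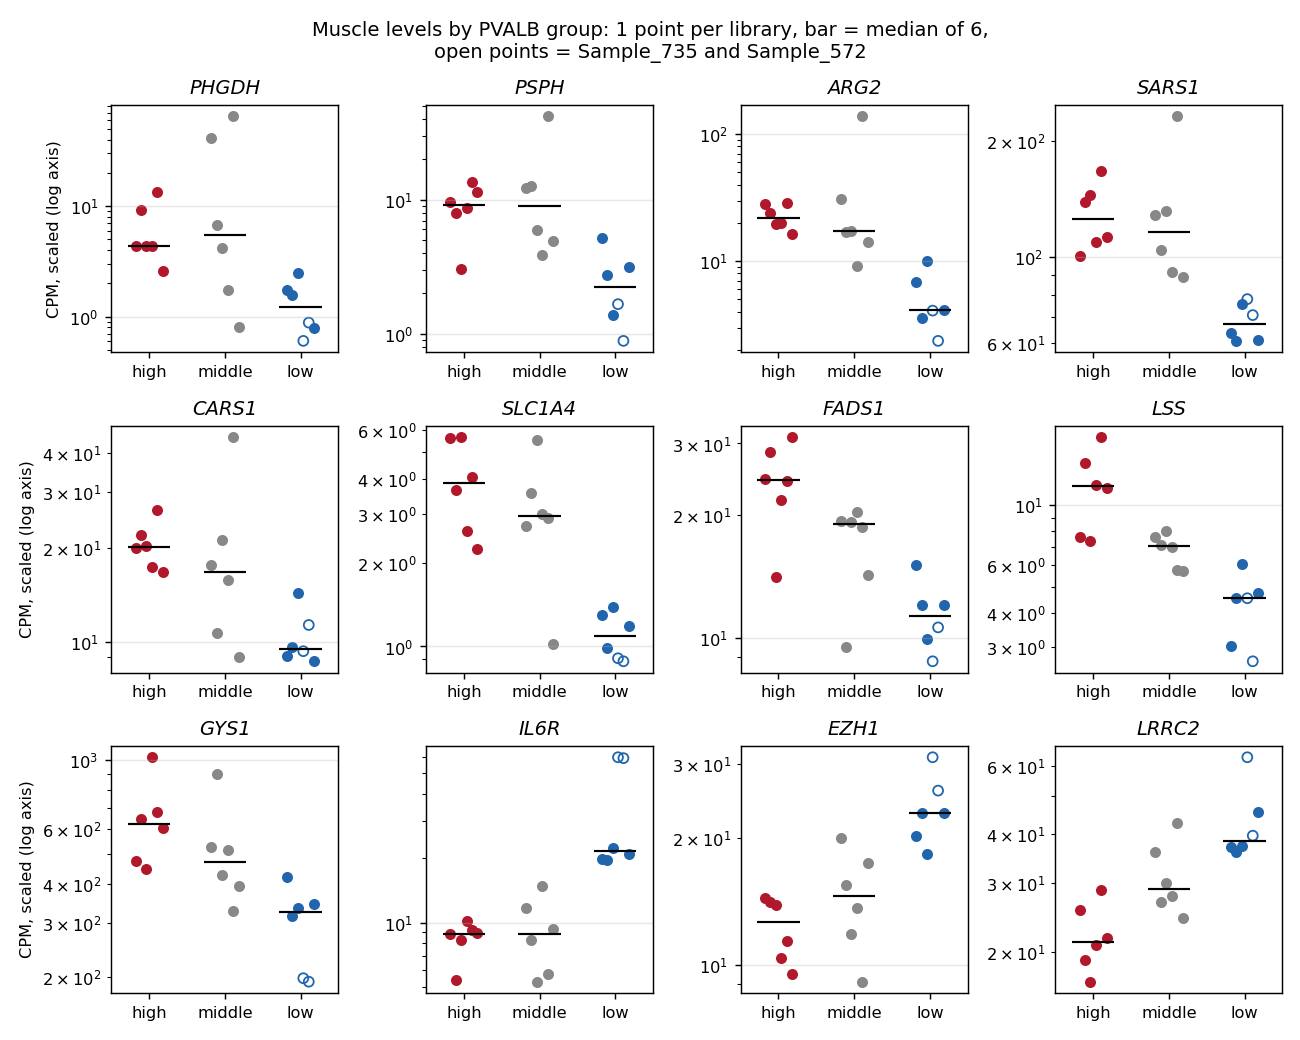
CPM after trimmed-mean scaling (log axes, 1 point per library, bars at the median of 6) of 12 genes that passed, in high, middle and low PVALB muscle. The high points of the first 9 genes lie mostly above the low ones and those of IL6R, EZH1 and LRRC2 below; the middle library Sample_231 tops PHGDH, PSPH, ARG2, SARS1 and CARS1, and open points are Sample_735 and Sample_572.

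Enzymes of sterol and fatty acid synthesis formed the next set. LSS, which closes squalene epoxide into lanosterol, had 7.39 to 17.9 CPM (median 11.7) in high and 2.65 to 6.08 CPM (median 4.54) in low PVALB muscle, with no overlap (log2 difference 1.45, SE 0.243, adjusted p = 0.0253, edgeR). FDPS, which makes the farnesyl diphosphate used for sterols, had a smaller difference of 0.66 (SE 0.133, adjusted p = 0.0456, edgeR) and overlapped between the groups. FADS1 and FADS2 encode desaturases of polyunsaturated fatty acid synthesis. FADS1 had 14.1 to 31.1 CPM in high and 8.77 to 15.1 CPM in low PVALB muscle (log2 difference 1.08, SE 0.177, adjusted p = 0.0253, edgeR), and only Sample_176 of the high group fell within the low range. FADS2 had 9.13 to 21.2 CPM in high and 6.49 to 11.7 CPM in low PVALB muscle (log2 difference 0.96, SE 0.189, adjusted p = 0.0456, edgeR), again with Sample_176 within the low range. HSD17B12, a reductase of the fatty acid elongation cycle, had 37.4 to 60.1 CPM in high and 15.7 to 37.6 CPM in low PVALB muscle (log2 difference 0.99, SE 0.188, adjusted p = 0.0413, edgeR), with the lowest high value just inside the low range. Of 10 desaturation and elongation genes, 3 were higher, 0 lower and 7 did not pass, with a median of 0.70. SCD, the desaturase that makes oleate, was among those that did not pass (log2 difference 2.29, SE 0.567, adjusted p = 0.0710, edgeR), with 84.8 CPM in Sample_889 alone and 7.83 to 28.7 CPM in the other high PVALB libraries, against 2.51 to 8.42 CPM in the low ones. Of 19 sterol synthesis genes, 2 were higher, 0 lower and 17 did not pass, with a median of 0.34, or 0.19 without Sample_735 and Sample_572. Over all 10659 genes tested, 39 were higher and 20 lower.

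GYS1, the glycogen synthase of muscle, was the 1 gene of 20 in the glycolysis and glycogen list that passed, with 447 to 1019 CPM (median 624) in high and 194 to 420 CPM (median 324) in low PVALB muscle. The groups did not overlap (log2 difference 1.10, SE 0.232, adjusted p = 0.0499, edgeR), and the difference was 0.86 without Sample_735 and Sample_572. The list had 11 members with an unadjusted p under 0.05 in the higher direction and 1 in the lower, against 1135 and 1145 of all 10659 genes. Its median was 0.54 with all 12 libraries and 0.26 without Sample_735 and Sample_572. In the slope on log2 PVALB over all 18 libraries, 610 of 11144 genes passed (5.47%, edgeR), 226 of them positive. Of the 20, 8 were positive and passed, but this slope includes the libraries of both groups and is no separate support. The glycolytic genes PKM, LDHA, PGK1 and GPI, picked out after their values were seen, did not overlap between the groups but missed the threshold. PKM, pyruvate kinase, had 6456 to 12508 CPM in high and 701 to 5101 CPM in low PVALB muscle (log2 difference 1.51, SE 0.402, adjusted p = 0.0741, edgeR). LDHA, lactate dehydrogenase, had 6880 to 11619 CPM in high and 864 to 6075 CPM in low PVALB muscle (log2 difference 1.21, SE 0.363, adjusted p = 0.0951, edgeR). Both were lowest in Sample_735 and Sample_572. The 3 most abundant members of the list did not pass and overlapped: glyceraldehyde phosphate dehydrogenase GAPDH (0.36), muscle enolase ENO3 (0.21) and muscle glycogen phosphorylase PYGM (0.27). Without Sample_735 and Sample_572 their log2 differences were 0.047, -0.069 and 0.12 in the same order.

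The contractile genes of fibre types that could be tested did not pass. Of 13 fast fibre symbols listed, 6 were matched to a gene and tested, and of 18 slow fibre symbols, 9. The other members of both lists were not examined. All 6 fast fibre genes tested had a positive log2 difference, against 5318 of all 10659 genes tested. The median of the 6 was 0.50, or 0.16 without Sample_735 and Sample_572. The fast myosin light chain MYL1 had 18555 to 33475 CPM (median 25429) in high and 5941 to 37169 CPM (median 18060) in low PVALB muscle, where both extremes of the 12 libraries lay in the low group (log2 difference 0.52, SE 0.403, adjusted p = 0.470, edgeR). The fast regulatory light chain MYL11 differed by 0.59 and the tropomyosin TPM1 by 0.74, with adjusted p of 0.322 and 0.285 by edgeR. Without Sample_735 and Sample_572 the log2 difference was 0.10 for MYL1, 0.26 for MYL11 and 0.33 for TPM1. Of the 9 slow fibre genes, 0 passed and the median was -0.04, or -0.42 without Sample_735 and Sample_572. Slow troponin TNNC1 had 1139 to 2849 CPM (median 1833) in high and 1036 to 3988 CPM (median 3212) in low PVALB muscle. Its lowest values in that group were those of Sample_735 and Sample_572, and its log2 difference was -0.49 with all 12 libraries and -0.82 (adjusted p = 0.206, edgeR) without them. TNNT1, slow troponin T, differed by -0.34 and MYBPC1, slow myosin-binding protein C, by -0.10, and without the same 2 libraries by -0.78 and -0.49. Since these are bulk samples, fewer fibres of a type and less RNA of a gene per fibre cannot be told apart.

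Genes of calcium handling, the setting in which parvalbumin works, did not pass either. Of 19 calcium release and uptake genes tested, 0 were called in either direction. In this list 17 had a positive log2 difference, against 5318 of all 10659 genes tested. The median was 0.34, or 0.16 without Sample_735 and Sample_572. ATP2A1, the calcium pump of fast fibres, had 8204 to 12108 CPM in high and 6664 to 10555 CPM in low PVALB muscle (log2 difference 0.37, SE 0.199, adjusted p = 0.290, edgeR). CASQ1, the calcium store protein of fast fibres, had 4196 to 7617 CPM in high and 896 to 5644 CPM in low PVALB muscle (log2 difference 0.88, SE 0.380, adjusted p = 0.202, edgeR), and its difference was 0.47 without Sample_735 and Sample_572. Sarcolipin, SLN, a small inhibitor of the pump, differed by 0.13, with an adjusted p of 0.791 by edgeR, and by 0.0024 without them. Of 21 respiratory chain genes, 0 passed, with a median of 0.14: ATP5F1A of the ATP synthase differed by 0.67, SDHA of complex II by 0.14 and COX4I1 of cytochrome oxidase by -0.02. Without Sample_735 and Sample_572 the list median was 0.04, and ATP5F1A differed by 0.42, SDHA by 0.04 and COX4I1 by -0.16.

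**Figure D4:**
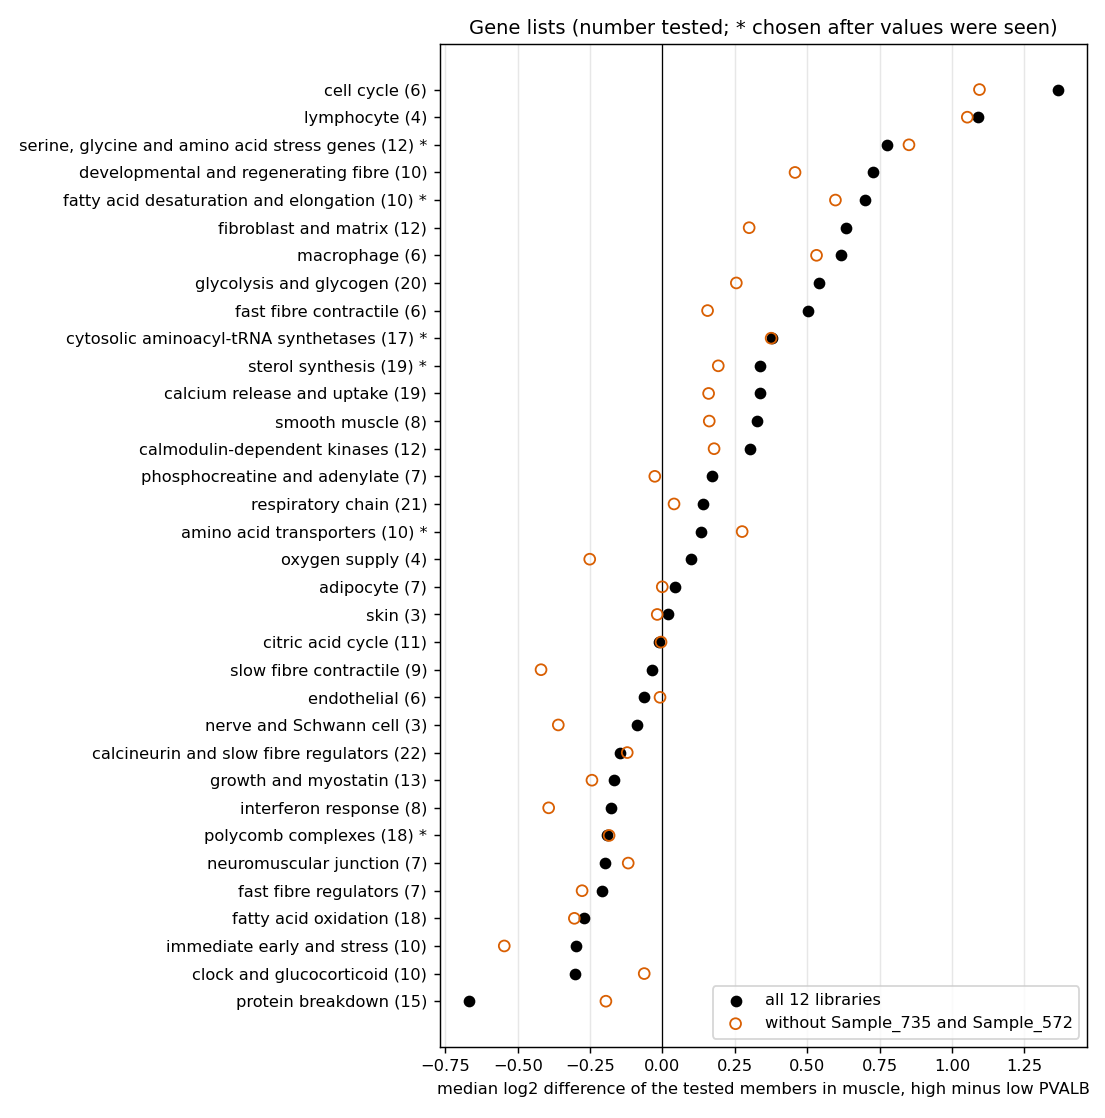
Median log2 difference (x axis, high minus low PVALB muscle) over the tested members of each gene list with at least 3 of them (y axis, number tested in brackets), for all 12 libraries (filled) and without Sample_735 and Sample_572 (open); a star marks a list drawn up after values were seen. The cell cycle (1.37) and protein breakdown (-0.67) lists lie at the ends of those plotted, and leaving out the 2 libraries brings protein breakdown to -0.20 and the slow contractile list to -0.42.

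Of 15 protein breakdown genes tested, 0 passed and 1 had a positive log2 difference. In all, 9 had an unadjusted p under 0.05 in the lower direction and 0 in the higher, and in the slope over 18 libraries 8 were negative and passed. Over all genes, 1145 of 10659 were lower at an unadjusted p under 0.05, and in the slope 384 of 11144 were negative and passed. The slope includes the libraries of both groups, so it is no separate support. The median was -0.67, but -0.20 without Sample_735 and Sample_572. FBXO32, a ubiquitin ligase subunit that rises in wasting muscle, had 1.90 to 9.31 CPM (median 5.98) in the high PVALB libraries. In the low ones it had 4.53, 15.8, 22.8 and 19.4 CPM in Sample_77, Sample_114, Sample_998 and Sample_186, and 180 and 269 CPM in Sample_735 and Sample_572. The excess was thus mostly in Sample_735 and Sample_572 (log2 difference -4.06, SE 0.963, adjusted p = 0.0686, edgeR), and -1.61 without them. TRIM63, the other muscle ubiquitin ligase of wasting, had 61.5 to 110 CPM in high and 59.9 to 341 CPM in low PVALB muscle (log2 difference -1.21, adjusted p = 0.121, edgeR). Its difference was -0.83 without Sample_735 and Sample_572 and -0.0014 without Sample_186 as well, which had 328 CPM. Among the most abundant members were the ubiquitin gene UBB (-0.22) and the autophagy receptor SQSTM1 (-0.67), with adjusted p of 0.421 and 0.101 by edgeR, and without Sample_735 and Sample_572 they differed by -0.08 and -0.33. FBXO32 and TRIM63 were picked out after their values were seen.

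IL6R (ENSSSCG00000027628), the receptor chain that binds interleukin-6, fell the most among the named genes that passed. It had 5.39 to 10.2 CPM (median 8.88) in high and 19.6 to 59.6 CPM (median 21.7) in low PVALB muscle. The 6 high values all lay below the low ones, and within the low group Sample_735 (59.6 CPM) and Sample_572 (59.0 CPM) were well above the other 4, which had 19.6 to 22.4 CPM. The log2 difference of IL6R was -2.01 (SE 0.339, adjusted p = 0.0347, edgeR) and, without those 2 libraries, -1.30 (adjusted p = 0.0112).

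The polycomb genes EZH1 and BMI1 also fell. EZH1, a histone H3 methyltransferase found in non-dividing cells, had 9.51 to 14.4 CPM in high and 18.4 to 31.1 CPM in low PVALB muscle (log2 difference -0.95, SE 0.156, adjusted p = 0.0253, edgeR). BMI1, a subunit of the complex that marks histone H2A with ubiquitin, had 28.8 to 44.0 CPM in high and 53.1 to 66.5 CPM in low PVALB muscle (log2 difference -0.66, SE 0.134, adjusted p = 0.0456, edgeR). Neither overlapped between the groups, and BMI1 differed by -0.65 without Sample_735 and Sample_572. Of 18 polycomb genes tested, 2 were lower, 0 were higher and 16 did not pass, with a median of -0.19. Over all 10659 genes tested, 20 were lower and 39 higher. SCMH1, a polycomb group homolog that was not in this list, went the other way without passing. It had 17.0 to 26.2 CPM in high and 12.2 to 16.2 CPM in low PVALB muscle, with no overlap (log2 difference 0.56, SE 0.136, adjusted p = 0.0668, edgeR).

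Other named genes that fell were the transcriptional regulator ZNF703 (-1.15), the calcium channel-associated CACHD1 (-0.99), the leucine-rich repeat gene LRRC2 (-0.97), the zinc finger genes ZNF277 (-0.93) and ZNF395 (-0.76), the paracaspase MALT1 (-0.91), the Wnt receptor FZD4 (-0.88), CRAMP1 (-0.80) and PWWP3A (-0.80), all log2 differences. LRRC2 had 16.7 to 28.8 CPM in high and 35.95 to 63.0 CPM in low PVALB muscle, with no overlap. Other named genes that rose were PENK, the precursor of the enkephalin peptides (1.62), the cytoskeletal regulator CDC42EP3 (1.33), the spindle assembly factor TPX2 (1.26), the ubiquitin ligase adaptor SPSB2 (1.13), the membrane protein gene TTYH2 (1.07) and the Z-disc protein gene SYNPO2L (0.79). SPSB2 was abundant, with 431 to 646 CPM in high and 126 to 377 CPM in low PVALB muscle and no overlap. The 59 genes had adjusted p between 0.00713 and 0.0499 and log2 differences between 0.51 and 2.23 in size.

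ENSSSCG00000027527, which has no symbol in the tables used here, had the smallest adjusted p in muscle. It had 10.4 to 19.4 CPM in high and 1.81 to 5.18 CPM in low PVALB muscle (log2 difference 1.98, SE 0.245, adjusted p = 0.00713, edgeR). ENSSSCG00000003467, also without a symbol, had 12.7 to 32.3 CPM in high and 44.6 to 68.6 CPM in low PVALB muscle (log2 difference -1.42, SE 0.198, adjusted p = 0.0108, edgeR).

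Markers of dividing, immune, matrix and fat cells were examined beside these genes. The 6 tested cell cycle genes all had a positive difference and an unadjusted p under 0.05, as had 1135 of all 10659 genes tested. Their median was 1.37 (1.09 without Sample_735 and Sample_572), and 1 of the 6, TPX2, passed. TOP2A, the topoisomerase of dividing cells, had 4.57 to 48.3 CPM in high and 2.06 to 18.2 CPM in low PVALB muscle, and the replication helicase gene MCM2 had 3.04 to 19.5 CPM in high and 2.12 to 7.18 CPM in low PVALB muscle. Sample_176 was the lowest of the high group for TPX2, TOP2A and MCM2. The summed level of the lymphocyte markers was 12.4 to 75.0 CPM in high and 16.2 to 44.8 CPM in low PVALB muscle, with 4 of 4 tested genes positive and 0 passing. The macrophage markers summed to 44.8 to 158 CPM in high and 50.8 to 100 CPM in low PVALB muscle (6 of 6 positive, 0 passing), and the fibroblast and matrix markers to 2919 to 7522 CPM in high and 1239 to 5377 CPM in low PVALB muscle (12 of 12 positive, 0 passing). Of all 10659 genes tested, 5318 were positive. The median log2 difference of the fibroblast and matrix list was 0.63, or 0.30 without Sample_735 and Sample_572. The adipocyte markers summed to 363 to 550 CPM in high and 524 to 741 CPM in low PVALB muscle (4 of 7 positive, 0 passing). At an unadjusted p under 0.05, 3 of these 7 were lower and 1 was higher, against 1145 and 1135 of all 10659 genes. The 1 that was higher was SCD, which is also in the desaturation list above. None of the markers of these 4 cell types was at 0 in all 12 libraries, and their part in the other differences was not tested. Of the 29 gene lists that were not drawn up after the values were seen, 3 held a gene that passed and 26 held none.

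Ranked by likeness to PVALB over the 18 libraries, the 8 named genes with the highest Spearman rho among 6050 candidates were LSS (0.843), SYNPO2L (0.825), SPSB2 (0.822), HACD3 (0.818), CAPZB (0.814), SCMH1 (0.812), PKM (0.804) and EHD1 (0.794). PNCK had a rho of 0.344. The 8 with the lowest rho were CHURC1 (-0.864), PWWP3A (-0.858), MTMR14 (-0.825), COPS2 (-0.820), LRRC2 (-0.820), RBM41 (-0.818), CCPG1 (-0.816) and EEF2 (-0.816). These values describe 18 libraries that include both groups and share the depth and composition differences given above. Sample_391 and Sample_491 had the PVALB CPM furthest from the median. Without them the rho rose for LSS (0.865) and PKM (0.856) and was weaker for HACD3 (0.741), CHURC1 (-0.809) and EEF2 (-0.768). The rho without Sample_735 and Sample_572 was not computed.

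Within the 6 middle libraries, which belong to neither group, PVALB varied only between 14.9 and 20.5 CPM. The slope on log2 PVALB passed for 0 of 10790 genes (0%, edgeR; 554 at an unadjusted p under 0.05). The slope had the sign of the group difference for 33 of the 59 genes, against 56.6% of all genes tested in both (5940 of 10502).

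Backfat of the same pigs gave a measure that had no part in the ranking. Between the backfat of high and low PVALB pigs, 0 of 12970 genes passed (0%, edgeR), with 1021 genes at an unadjusted p under 0.05 (7.87%); DESeq2 called 11. Of the 58 muscle genes that could be tested in backfat, 50 differed in the same direction as in muscle, against 60.3% of all genes (6217 of 10311), and 14 had an unadjusted p under 0.05, all 14 in the same direction. PHGDH had 28.1 to 102 CPM (median 46.8) in backfat of high and 16.7 to 50.3 CPM (median 23.0) in backfat of low PVALB pigs (log2 difference 1.12, SE 0.355, unadjusted p = 0.00741, adjusted p = 0.626, edgeR). LSS had 56.2 to 182 CPM in backfat of high and 49.9 to 89.7 CPM in backfat of low PVALB pigs (log2 difference 0.93, adjusted p = 0.626, edgeR). The groups overlapped in backfat for both genes. Of the 10 desaturation and elongation genes, 8 were higher in backfat of high PVALB pigs at an unadjusted p under 0.05, as were 14 of 21 respiratory chain genes, with 0 lower in either list.

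The difference between high and low PVALB pigs was then compared between the tissues. In a fit without a term for the pig, which ignores that both tissues come from 1 animal, the effect differed for 1 of 13467 genes (0.00743%, edgeR), ARG2. ARG2 had 5.11 to 8.14 CPM in backfat of high and 6.09 to 8.996 CPM in backfat of low PVALB pigs, so that the groups overlapped there (log2 difference -0.11). The muscle difference exceeded the backfat difference by 2.20 on the log2 scale (SE 0.335, adjusted p = 0.0107, edgeR). With the pig as a replicate block, which takes up the pairing, 4 genes passed: ARG2, FLAD1, TMEM82 and ENSSSCG00000003467. There the ARG2 effect was 2.28 (SE 0.321, adjusted p = 0.0152, edgeR).

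**Figure D5:**
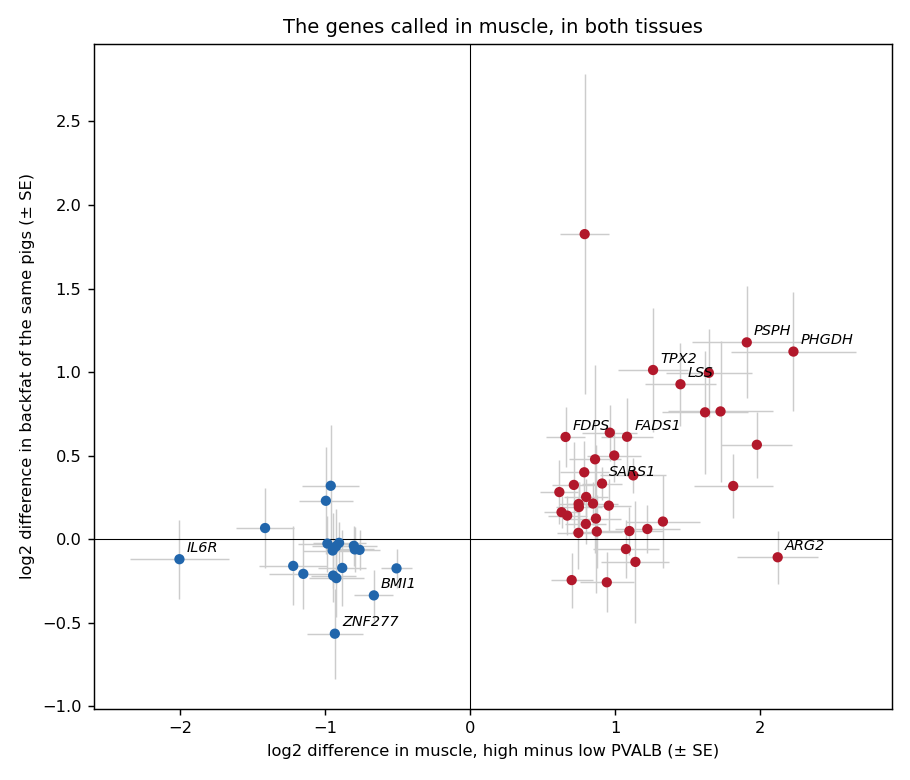
Log2 difference, high minus low PVALB, in muscle (x axis) and in backfat of the same pigs (y axis) for the 58 genes that passed in muscle and were tested in backfat, each with its SE. PHGDH, PSPH and LSS lie to the upper right, and ARG2 has 2.12 in muscle and -0.11 in backfat. The topmost point is SYNPO2L (1.83 in backfat, unadjusted p = 0.0797, edgeR), although its median was lower in high PVALB pigs. It had 1.59 to 60.2 CPM (median 2.10) in backfat of high and 1.18 to 6.43 CPM (median 3.31) in backfat of low PVALB pigs.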

How the data were processed

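RNA of muscle and backfat from 18 pigs was isolated with a MagMAX kit, made into TruSeq libraries and read in pairs on a HiSeq, per the labels' protocols, which do not state strand, so antisense and overlapping genes cannot be told apart. Per the submitters' processing notes the tools included GSNAP and HTSeq, with no version or genome build stated. A single table was deposited by the authors, holding unnormalised expected counts in steps of 0.5 for 25322 genes and 5 lines that name no gene, which stayed out of totals and tests. These were rounded to whole numbers (ties to even) for tests. A symbol was found for 11804 gene IDs. The tissue and pig of a library were taken from its title, and PVALB stayed out of every test and count.

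Tests used the quasi-likelihood test of edgeR 4.0.16 with limma 3.58.1 (robust, trimmed-mean factors, the default filter on low counts) in R 4.3.3, with an adjusted p threshold of 0.05; DESeq2 1.42.0 served as an alternative, and Python 3.11.15 with SciPy 1.17.1 for permutations. The SE is the size of the log2 difference over the root of F, and the fits were checked on simulated counts. Those counts had a single fixed spread for all genes and no outlying libraries. The check therefore does not cover libraries that stand apart, such as Sample_735 and Sample_572. Alternatives changed the scaling, filter, tool, ranking, group size and covariate, and left out libraries. Muscle and backfat of a pig come from 1 animal; their deviations from the group means correlated at 0.154 on average (-0.0173 to 0.423) within a pig and -0.0141 between pigs.

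The groups, gene lists and tests were chosen with earlier results of these data known. Named genes are PVALB, PNCK, up to 12 per direction with the largest difference among those that passed with a symbol and a mean of at least 5 CPM, the 3 most abundant members of the lists described by gene, and the 8 most and least like PVALB. SARS1, CARS1, AARS1, SLC3A2, SLC1A4, FADS2, FDPS, PHKG1, ASNS and SCD, the genes without a symbol and those so marked in the text were chosen after their values were seen; lists not named in the text are shown by their median in the plot of gene lists, which leaves out the erythroid list (1 gene tested, HBB, log2 difference 1.62). Of the genes so named, 1 is not reported here.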

Additional observations from a re-analysis of the deposited data

Results flagged for a closer look

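In groups of 6 libraries, 13 values over the 156 groups examined lay far from the other 5 (the gap to the nearest value, as a share of the range, was above Dixon's critical value), where chance alone gives about 1 in 20 groups. In the high PVALB muscle libraries these were PSPH in Sample_176 (3.04 CPM, low), IL6R in Sample_491 (5.39 CPM, low), MALT1 in Sample_835 (5.97 CPM, high), PGK1 in Sample_991 (2928 CPM, high) and SQSTM1 in Sample_176 (274 CPM, high). In the low PVALB libraries they were ZNF703 and CACHD1 in Sample_735 (22.5 and 26.3 CPM, both high), COX4I1 in Sample_735 (317 CPM, low), FZD4 and ZNF395 in Sample_998 (47.5 and 15.3 CPM, both low) and FDPS in Sample_186 (31.5 CPM, high). Sample_998 also had the most gene counts of its group (6216459), and Sample_572 the largest share of counts in no gene (34.1%).

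The difference between high and low PVALB pigs itself differed between muscle and backfat for ARG2. It did so by 2.20 on the log2 scale without a term for the pig (adjusted p = 0.0107, edgeR). With the pig as a block it was 2.28 (adjusted p = 0.0152, edgeR).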

How the results depend on the processing

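The 59 genes that passed in muscle became 55 with DESeq2's size factors and 67 with no filter beyond 1 count. They became 111 with library totals alone, 568 with the DESeq2 Wald test, 39 with at least 1 CPM in 6 of 12 libraries, 27 with PVALB ranked after scaling (Sample_242 in place of Sample_835), 1 with the top 4 against the bottom 4, 1 with the top 9 against the bottom 9, 610 as a slope over 18 libraries and 21 with the share of the 10 most abundant genes as a covariate. Without Sample_735 and Sample_572 there were 3, and without Sample_186 as well 0 (919 at an unadjusted p under 0.05), 2 alternatives chosen after seeing the data. Leaving out 1 library each gave 3 to 355. The causes were not tested. In backfat the DESeq2 Wald test gave 11 genes and every other alternative 0. In the 6 middle libraries, library totals alone gave 1. For the tissue difference, the replicate block (the paired fit with the pig as a term) gave 4 genes against 1; no other comparison is paired. The 35 named genes that passed kept their direction in all 24 muscle alternatives, which share libraries with the fit that chose these genes. Of the 35, 32 missed the threshold without Sample_735 and Sample_572, 9 with library totals alone, 6 in the slope and 0 with DESeq2.

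Of the named genes that did not pass, 7 changed sign somewhere. MYBPC1 had 0.22 after the scaled ranking, 0.22 with 4 against 4, 0.13 with 9 against 9, 0.019 as a slope and -0.27 to 0.12 with 1 library left out. SLN had -0.055 with library totals alone, -0.035 with 9 against 9, -0.16 with the covariate and -0.022 to 0.28 with 1 library left out. COX4I1 had 0.069 after the scaled ranking, 0.080 with 4 against 4, 0.019 as a slope and -0.12 to 0.043 with 1 library left out. With the covariate PYGM had -0.011, GAPDH -0.11 and ENO3 -0.19; ENO3 had -0.069 without Sample_735 and Sample_572 and -0.066 without Sample_186 as well, and SDHA -0.020 with library totals alone. PVALB itself rests on as few as 5.5 counts in the low group.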

Other observations

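In backfat, where edgeR called no gene, the DESeq2 Wald test called 11, of which 10 were higher in high PVALB pigs. Among them was ACACA, the first enzyme of fatty acid synthesis, with a mean of 123 CPM in backfat of high and 70.1 CPM in backfat of low PVALB pigs (log2 difference 0.80, adjusted p = 0.0459, DESeq2). CA3, a carbonic anhydrase abundant in muscle and fat, averaged 589 CPM in backfat of high and 161 CPM in backfat of low PVALB pigs (log2 difference 1.87, adjusted p = 0.0263, DESeq2). Both were chosen after their values were seen. ACTA1 in backfat was between 84.2 and 12562 CPM in high and between 178 and 1567 CPM in low PVALB pigs, so backfat libraries held very different levels of this muscle transcript.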
